A study of Mus musculus with 22 samples.

Results

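The nuclear genes of the mitochondrial respiratory chain were described across cells passing from endothelium to blood in the mouse embryo. They were chosen by symbol from the deposited count table (Ndufa, Ndufb, Ndufc, Ndufs and Ndufv subunits, Sdha to Sdhd, the Uqcr genes with Cyc1, Cox4 to Cox8, and Atp5), which gave 84 of its 24454 genes. By complex these were 36 genes for complex I, 4 for complex II, 9 for complex III, 18 for complex IV and 17 for complex V. Ndufa4 was kept in complex I by its symbol although its protein is now placed in complex IV, and Atp5s and Atp5sl carry the symbol without being core subunits of the ATP synthase.

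The respiratory chain sits in the inner mitochondrial membrane. Complexes I and II pass electrons from NADH and succinate to ubiquinone, complex III passes them to cytochrome c and complex IV to oxygen. Complexes I, III and IV pump protons as they do so, and complex V, the ATP synthase, uses the proton gradient to make ATP. Most subunits are encoded in the nucleus and some in mitochondrial DNA. The mitochondrially encoded subunits were not analysed here.

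The libraries were made from wild-type, untreated C57BL/6 embryos, each from 25 cells of the aorta-gonad-mesonephros (AGM) region that were sorted as VE-cadherin positive and then by CD44 and Kit. CD44Neg endothelium gave 10 libraries, of which 4 came from E9.5 and 3 each from E10 and E11. CD44LowKitNeg cells, also labelled endothelial, gave 6, with 1 from E9.5, 2 from E10 and 3 from E11. CD44LowKitPos cells, labelled Pre-HSPC, gave 3, with 1 from E9.5 and 2 from E10, and CD44High cells, labelled HSPC (haematopoietic stem and progenitor cells), gave 3 libraries, all at E11. No stage held both CD44LowKitPos and CD44High, and the date in the labels changed with the stage, so stage and date cannot be told apart. The titles of all CD44LowKitPos and CD44High libraries carry a prefix, KG, that no CD44Neg or CD44LowKitNeg title has. Its meaning is not given, and it cannot be told apart from these populations. Nothing in the labels says that the libraries of a group came from separate embryos, and p-values then measure only the spread between these libraries, which may be technical.

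Between 3912350 and 8657546 counts were assigned to genes per library (median 5758382.5), and the ribosomal RNA precursor Rn45s took 1.92% to 19.3% of them in CD44Neg, 7.29% to 19.2% in CD44LowKitNeg, 6.82% to 9.26% in CD44LowKitPos and 16.6% to 23.9% in CD44High. Of the 22 libraries 20 lay nearest to one of their own population. The exceptions were CD44LowKitNeg replicate 14 and CD44LowKitPos replicate 19, both at E9.5. The 6 endothelial markers Cdh5, Pecam1, Kdr, Tek, Tie1 and Cldn5 summed to 2115 to 3951 normalized CPM (a gene's share of its library's counts, after TMM scaling) in CD44Neg, 2668 to 6463 in CD44LowKitNeg, 460.1 to 1266 in CD44LowKitPos and 11.88 to 60.45 in CD44High. Cdh5, the gene of the VE-cadherin used in the sort, had 0 counts in all 3 CD44High libraries. The 7 macrophage markers summed to at most 12.45 in CD44Neg, at most 71.52 in CD44LowKitNeg, 163 to 220.4 in CD44LowKitPos and 3397 to 5317 in CD44High. C1qa and C1qb were at 0 outside CD44High.

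Of the 84 genes, 76 had at least 10 counts in every library. Cox4i2, Cox6b2 and Cox7a1 had counts in some libraries only. Ndufs5, Cox6a2, Cox7b2, Cox8b and Cox8c had 0 counts in all 22 libraries. Cox6a2, Cox8b and Cox7a1 are isoforms known from heart and skeletal muscle, and Cox8c is known from testis. Ndufs5 differs from these, since it is a subunit of complex I in nearly all tissues, and 31.1% of the 50-base words of its longest transcript also occur in transcripts of other genes, chiefly BC002163. It is therefore given only as listed at 0. Counts of other members are uncertain in the same way, because 26 members share over 10% of their 50-base words with other genes. The largest shares were those of Atp5l (84.8%), Atp5h (47.9%) and Uqcrb (43.4%).

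Transcripts of the respiratory chain were lowest in CD44LowKitNeg and highest in CD44High. The 84 genes together summed to 22440 ± 1864 normalized CPM (SD, n = 10) in CD44Neg and to 16670 ± 2182 (n = 6) in CD44LowKitNeg. The sum was 22540 ± 917.4 (n = 3) in CD44LowKitPos and 27980 ± 910.5 (n = 3) in CD44High. The highest CD44LowKitNeg library (19640, replicate 14 at E9.5) lay just under the lowest CD44Neg library (19800), and all 3 CD44High libraries (27130 to 28940) lay above every other library. CD44Neg and CD44LowKitPos overlapped. As a share of all counts before scaling, the 84 genes took 2.05% to 2.7% in CD44Neg, 1.4% to 1.96% in CD44LowKitNeg, 2.31% to 2.51% in CD44LowKitPos and 2.29% to 2.45% in CD44High. On that share CD44High did not stand above CD44Neg. Scaling factors were 0.8411 to 0.8567 in CD44High and 0.9654 to 1.1076 in CD44Neg. In these bulk samples fewer cells of a type and less RNA per cell cannot be told apart.

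Each of the 5 complexes had its lowest mean in CD44LowKitNeg and its highest in CD44High, with different separation. Complex V summed to 6519 to 7627 in CD44Neg and to 4171 to 5827 in CD44LowKitNeg, so the groups did not overlap. Complex III also kept the groups apart, though narrowly, at 2461 to 3463 against 1720 to 2441. For complex I the ranges were 6021 to 9321 and 4327 to 6594, for complex II 1074 to 1441 and 718 to 1129, and for complex IV 3613 to 4661 and 2460 to 3644. These 3 overlapped. In CD44High the sums were 8311 to 8675 for complex I, 1537 to 1815 for II, 3220 to 3530 for III, 5189 to 5444 for IV and 8852 to 9673 for V. Complexes II, IV and V in CD44High lay above every library of the other populations.

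**Figure D1:**
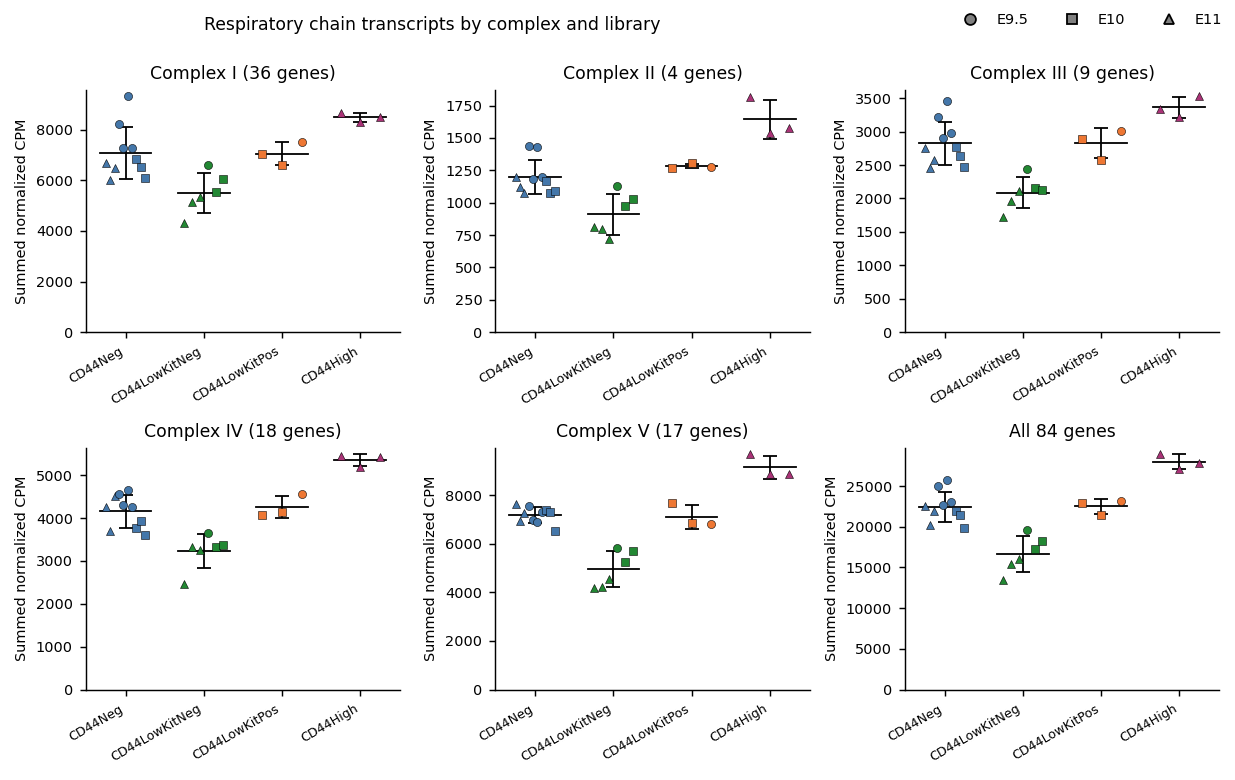
Summed normalized CPM (y axis) of the genes of each complex and of all 84 genes, in every library of the 4 populations (x axis). Circles, squares and triangles are E9.5, E10 and E11 libraries, and horizontal lines with bars are means ± SD. In each panel the mean is lowest in the 6 CD44LowKitNeg libraries and highest in the 3 CD44High libraries. For complex I, CD44Neg replicate 6 (9321) lies above all CD44High libraries. For complex III it (3463) lies above CD44High replicates 20 and 21.

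The first comparison asked how the 2 endothelial populations differ. Of 77 respiratory chain genes with enough counts to be tested, 21 were lower in CD44LowKitNeg than in CD44Neg and 0 were higher by edgeR's quasi-likelihood test (Benjamini-Hochberg adjusted p under 0.01 over 11022 genes). That is 27.3% of the members, where 10.2% of all tested genes passed in either direction and 5.23% passed as lower. At an unadjusted p under 0.05, 46 members passed (32.6% of all genes did), and DESeq2 called 27. The median log2 fold change was -0.40 over the members and 0.005 over all tested genes, and 61 of 77 members were negative against 49.8% of all genes. For 11 members the libraries of the populations did not overlap (14.3%, against 3.08% of all genes in that direction). Each complex held members that fell, 7 of 35 in complex I, 1 of 4 in II, 3 of 9 in III, 4 of 12 in IV and 6 of 17 in V. Marker lists of other cells also had higher means in CD44LowKitNeg than in CD44Neg. The 6 haematopoietic markers summed to 0 to 35.27 normalized CPM in CD44Neg and 7.633 to 269.7 in CD44LowKitNeg, with 1 of 4 tested called higher. Mesenchymal markers summed to 0 to 13.84 and 4.193 to 63.05, with 0 of 2 tested called. Erythroid markers summed to 2.607 to 23.74 and 20.47 to 54.59, with 0 of 2 tested called. Macrophage markers summed to 0 to 12.45 and 0 to 71.52, with 0 of 1 tested called. Each tested marker of these lists was positive, and most of each list had too few counts to be tested. The part of such cells in these differences was not tested.

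In complex I the lower genes included the core that carries electrons and the accessory subunits around it. Of the 7 core subunits 3 fell, with a median of -0.67, and of 28 accessory subunits 4 fell, with a median of -0.35. Ndufs7, a core subunit that holds an iron-sulphur cluster (chr10:80249121-80256794, plus strand, mm10), ranged over 105.8, 135.9 and 177.1 normalized CPM (lowest, median, highest) in CD44Neg and over 63.72, 89.72 and 99.48 in CD44LowKitNeg. The ranges did not overlap. The log2 fold change was -0.67 ± 0.16 (SE, adjusted p = 0.00453, edgeR). The call was lost without the filter on low counts and without CD44Neg replicate 4 or CD44LowKitNeg replicate 11, 13 or 16, each left out alone.

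Ndufa8, an accessory subunit (chr2:36036326-36049406, minus strand), fell by 1.29 ± 0.22 on the log2 scale, more than any other member (adjusted p = 3.7e-04, edgeR). Its values were 184.3, 273.6 and 482.1 in CD44Neg and 84.83, 123.1 and 163.2 in CD44LowKitNeg. No library of one population reached the other. The spread within CD44Neg followed stage, with 336.6 to 482.1 at E9.5 and 184.3 to 285.3 at E10 and E11. Ndufa10 (-0.85), Ndufa9 (-1.07) and Ndufb8 (-0.98) are accessory subunits that also fell, and Ndufs3 (-0.78) is a core subunit that fell. The Ndufs3 call was lost without the filter on low counts and without CD44Neg replicate 4 or 6 or CD44LowKitNeg replicate 11, 13, 15 or 16, each left out alone. Core subunits that did not pass had log2 fold changes of -0.52 for Ndufs8, -0.73 for Ndufv1, -0.38 for Ndufs1 and 0.10 for Ndufv2. Ndufb6 had the highest fold change in complex I (0.52 ± 0.26, adjusted p = 0.169, edgeR).

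Complex II, which is also succinate dehydrogenase of the TCA cycle, had 1 gene that passed. Sdhb, its iron-sulphur subunit, fell by 0.72 ± 0.17 (adjusted p = 0.00588, edgeR). Its values were 276.2, 364.6 and 568.6 in CD44Neg and 186.7, 213.6 and 289.3 in CD44LowKitNeg, and only replicate 14 of the latter reached the CD44Neg range. The call was lost in 7 of 16 fits that left out 1 library (CD44Neg replicates 4 and 9, and each CD44LowKitNeg replicate but 14), and also without the filter on low counts and without Rn45s. The other subunits had values of -0.32 (Sdha, the flavoprotein), -0.29 (Sdhc) and -0.18 (Sdhd, both membrane anchors).

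In complex III the cytochrome c1 gene Cyc1 had the smallest p of all members. Cyc1 (chr15:76343523-76346260, plus strand) measured 204.5, 248.5 and 293.9 in CD44Neg and 103.9, 124.3 and 136.1 in CD44LowKitNeg, a fall of 0.99 ± 0.13 (adjusted p = 3.9e-05, edgeR). The populations were well apart in every library. The core protein gene Uqcrc1 fell by 0.98 ± 0.18 (adjusted p = 5.5e-04), with 1 CD44LowKitNeg library (replicate 14, 494) inside the CD44Neg range of 491.1 to 996.5. Uqcr10, a small subunit, fell by 0.63. Uqcrfs1, the Rieske iron-sulphur protein that passes the electron on to Cyc1, stood at -0.22 (adjusted p = 0.308), and Uqcrb, the subunit with the highest value, at 0.36 (adjusted p = 0.156).

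Of the complex IV genes, 4 structural subunits fell, Cox8a by 0.69, Cox6a1 by 0.67, Cox6b1 by 0.64 and Cox7a2 by 0.60. The calls of Cox8a and Cox7a2 were lost with DESeq2 size factors, without the filter on low counts and without Rn45s. With single libraries left out, Cox8a was lost without CD44Neg replicate 4 or any CD44LowKitNeg replicate but 12, and Cox7a2 without CD44Neg replicate 4, 5, 6 or 7 or CD44LowKitNeg replicate 11, 15 or 16. Cox6a1 measured 343.4, 442.5 and 492.5 in CD44Neg and 216.6, 269.5 and 311.3 in CD44LowKitNeg, with no overlap (adjusted p = 0.00193, edgeR). Cox4i1, the usual form of subunit 4, was at -0.44 and just missed the threshold (adjusted p = 0.0112). The related Cox7a2l (-0.01) and Cox7b (0.04) did not pass. Cox6b2 had the highest fold change of the complex (0.61 ± 0.79, adjusted p = 0.653), from at most 49 counts in any library of these populations.

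In complex V the catalytic subunit gene Atp5b led. Atp5b (chr10:128083273-128090391, plus strand) measured 1157, 1785 and 2131 in CD44Neg and 709.5, 949.6 and 1030 in CD44LowKitNeg. The lowest CD44Neg library, replicate 6 at E9.5, lay above every CD44LowKitNeg library. The fall was 0.99 ± 0.14 on the log2 scale (adjusted p = 7.0e-05, edgeR). Atp5a1, the partner alpha subunit of the catalytic head, fell by 0.68. Its call was lost without the filter on low counts and without CD44Neg replicate 4 or 9 or CD44LowKitNeg replicate 11, 12 or 13, each left out alone. All 5 genes of the F1 part, which includes the catalytic head (Atp5a1, Atp5b, Atp5c1, Atp5d and Atp5e), were negative. Among the other genes of the complex, Atp5g1 (-1.07), Atp5o (-0.94), Atp5j2 (-0.68) and Atp5k (-0.63) fell. The Atp5g1 call was lost without CD44LowKitNeg replicate 13. The highest value under an Atp5 symbol was that of Atp5sl (0.12), which is not a core subunit.

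The comparison was weaker within single stages. At E11 (3 against 3 libraries, in a fit of all population and stage groups) 4 members were lower, among them Atp5a1, Atp5b and Ndufa9, and at E10 (2 against 3) 0 were, with 0 higher at both. Of all genes 2.89% passed at E11 and 0.205% at E10. The medians of the members remained negative, -0.37 at E11 and -0.30 at E10. With stage as a covariate of all 16 libraries, 27 members were lower and 0 higher, where 10.7% of all genes passed. Leaving out single libraries gave 13 calls (without CD44Neg replicate 4, and likewise without CD44LowKitNeg replicate 11) to 22. Without the filter on low counts, 13 were called. Uqcr10 and Atp5k were not followed by gene through these settings.

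**Figure D2:**
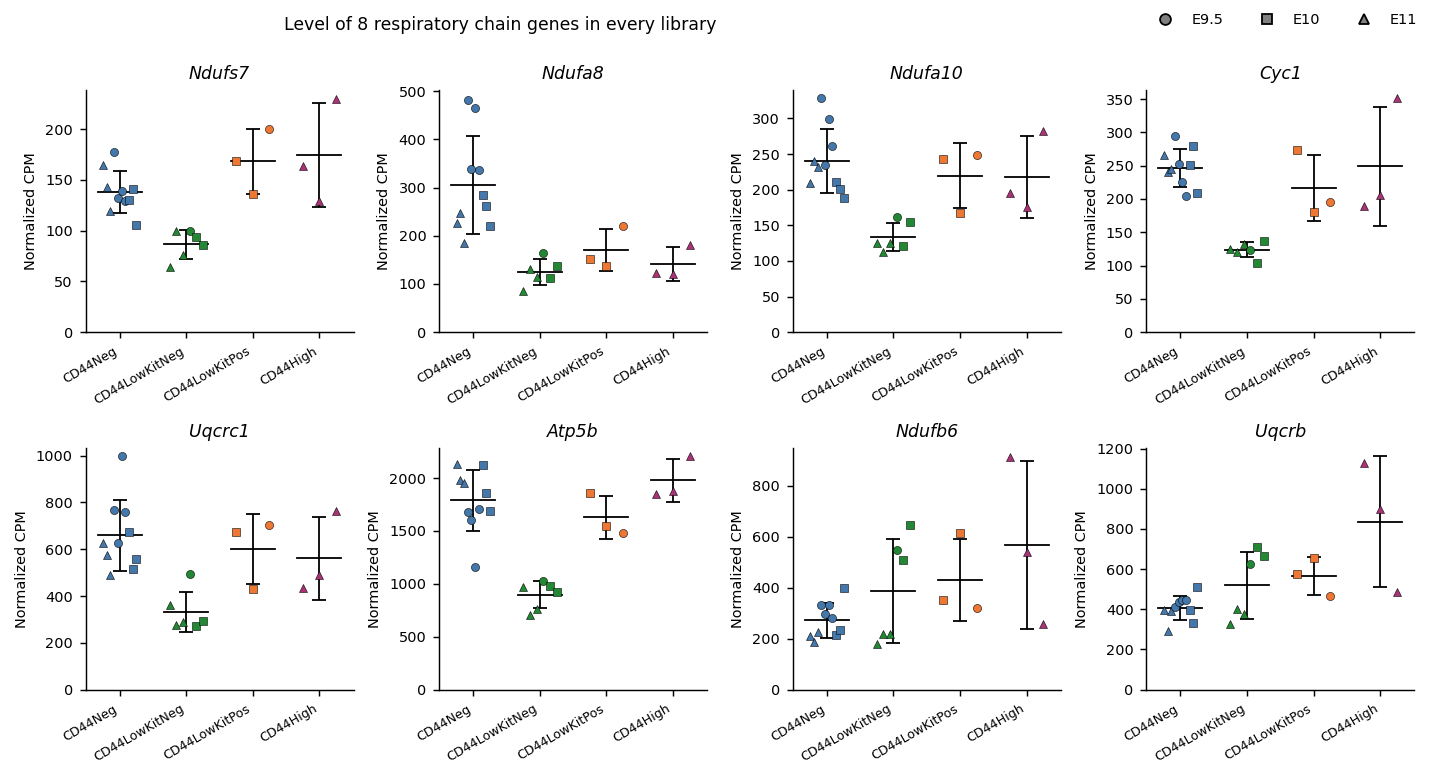
Normalized CPM (y axis, from 0) of 8 respiratory chain genes in every library of the 4 populations (x axis), with means ± SD and stages marked by shape. Ndufs7, Ndufa8, Ndufa10, Cyc1, Uqcrc1 and Atp5b were lower in CD44LowKitNeg than in CD44Neg, and Ndufb6 and Uqcrb spread widely within CD44LowKitNeg (179.5 to 647 and 326.4 to 709.6) and within CD44High (256 to 913.7 and 484.8 to 1126).

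Since members of every complex fell, the promoters were searched for 3 short motifs, each read on both strands in the window from 250 bases before to 50 after the gene start (RefSeq, GRCm38.p6). A window was at hand for 69 of the 84 genes. The NRF1 motif, whose letters are the capitals in the sequences printed here, is the site of a factor long known for respiratory chain promoters. It stood in 5 of 69 (7.25%), against 1.47% of 17492 protein-coding genes and 1.07% of all 27025 genes. Of the members lower in CD44LowKitNeg with a window, 3 of 18 held it, and 2 of 47 of the tested members that were not called did. The YY1 motif AAGATGGC stood in 11 of 69 (15.9%, against 3.57% of protein-coding and 3.19% of all genes). The ETS motif CCGGAAGT stood in 5 (7.25%, against 5.69% and 4.31%). Of the same called and not called members, the YY1 motif stood in 4 of 18 and 7 of 47. The ETS motif stood in 2 of 18 and 3 of 47. All 3 motifs thus had a higher share in the called members, and the split was not tested. These are matches of letters and not measured binding. The NRF1 matches upstream of 4 genes are shown with 40 or fewer bases on each side, Atp5k and Cox6a1 as members that fell and Atp5g2 and Ndufa11 as members that did not pass, with the motif in capitals and the strand of the gene. The windows are chr5:108434400-108434489 (minus) for Atp5k, chr5:115349071-115349160 (minus) for Cox6a1, chr15:102671048-102671129 (minus) for Atp5g2 and chr17:56717662-56717751 (plus) for Ndufa11, and the motifs end 40, 152, 32 and 50 bases before the start.
Atp5k: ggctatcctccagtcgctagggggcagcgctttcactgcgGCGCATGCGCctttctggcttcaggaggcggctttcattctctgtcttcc
Cox6a1: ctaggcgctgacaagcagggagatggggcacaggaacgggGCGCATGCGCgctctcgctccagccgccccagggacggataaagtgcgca
Atp5g2: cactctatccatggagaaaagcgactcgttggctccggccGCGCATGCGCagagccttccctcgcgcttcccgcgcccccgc
Ndufa11: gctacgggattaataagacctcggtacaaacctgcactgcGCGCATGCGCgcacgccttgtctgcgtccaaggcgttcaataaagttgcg

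The genes that feed and build the chain were read from lists of known roles. Of 17 genes of the TCA cycle and pyruvate dehydrogenase, which supply NADH and succinate, 7 were lower in CD44LowKitNeg and 0 higher (median -0.57). They included Mdh2 (-1.08), Fh1 (-1.05), Suclg2 (-1.03), Idh3g (-0.76), Cs (-0.76) and Idh2 (-0.67). Of 15 electron carrier and feeder genes 3 were lower (median -0.65), Cycs, which encodes somatic cytochrome c, by -1.21, Coq7 of ubiquinone synthesis by -1.05 and Etfb of the electron transfer flavoprotein by -0.92. Of 45 assembly factors 2 were lower, Uqcc2 (-1.16) and Acad9 (-1.14), a share near the 5.23% of all genes called lower. Their median was -0.27 and 37 were negative. Among 12 tested regulators of mitochondrial biogenesis the median was 0.13 and only Myc passed. Myc fell by 1.97 ± 0.24 (adjusted p = 1.7e-05, edgeR), from 53.93 to 120.8 in CD44Neg to 13.01 to 39.12 in CD44LowKitNeg. Nrf1, the gene of the factor named above, stood at -0.93 (adjusted p = 0.0235) and Gabpa, an ETS factor, at 0.57 (adjusted p = 0.165). Of the 3 tested subunits outside the symbol rule (Ndufab1, Usmg5 and the inhibitor Atpif1) 0 passed.

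CD44LowKitPos was compared with both endothelial populations. Against CD44LowKitNeg, 4 of 79 tested members were higher and 0 lower (5.06%, where 4.26% of 12949 genes passed and 2.55% were higher), with a median of 0.42 over members and -0.02 over all genes. The member share was close to the 4.26% called in either direction and above the 2.55% called higher. By sign 72 members were positive (8.86% were negative, against 50.7% of all genes). At an unadjusted p under 0.05, 33 passed (41.8%, against 27.2%). For 16 the libraries did not overlap (20.3%, against 9.55% of all genes in that direction). The 4 called members were Ndufs7 (0.96), Atp5b (0.86), Atp5a1 (0.85) and Cyc1 (0.81), each of which was also lower in CD44LowKitNeg than in CD44Neg. The comparisons share the CD44LowKitNeg libraries. Atp5b measured 1860, 1549 and 1478 in the 3 CD44LowKitPos libraries, all above the highest CD44LowKitNeg library at 1030, and its log2 fold change was 0.86 ± 0.18 (adjusted p = 0.00339, edgeR). Cyc1 measured 274, 181 and 195 against at most 136.1 (adjusted p = 0.00983, edgeR). The calls differed in how often they held. Of 22 fits that left out 1 library, the call was lost in 21 for Cyc1, 18 for Atp5a1, 9 for Ndufs7 and 3 for Atp5b, and of 8 other settings in 7, 6, 5 and 2. Without CD44LowKitPos replicate 17, or without replicate 18, 0 members passed by edgeR. Only 1 or 2 passed without any 1 of CD44Neg replicates 1, 2, 3, 4, 5, 7, 8 or 9, CD44LowKitNeg replicates 11, 12, 13, 15 or 16, CD44LowKitPos replicate 19, or CD44High replicates 20 or 21, all of which share the fit. Without both libraries that stood nearer another population, a setting chosen after seeing the data, 2 passed. The other lists had 6 of 17 TCA genes higher, among them Suclg2 (1.39), Idh3a (1.20), Idh3g (1.01), Mdh2 (0.99) and Fh1 (0.86), and Myc rose by 1.92 on the log2 scale.

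Against CD44Neg, 0 of 79 members passed in CD44LowKitPos by edgeR (3.48% of all genes passed), 10 had an unadjusted p under 0.05 (20.3% of all genes) and DESeq2 called 2. The median was -0.02. Cox4i2 had the smallest p. This gene encodes the alternative form of subunit 4 that is known from lung and is induced by low oxygen. In counts it was at 209, 66 and 113 in CD44LowKitPos. In CD44Neg it was at 0 in 6 of 10 libraries and at 2, 8, 9 and 26 in the others, so the groups did not overlap. The log2 fold change was 4.51 ± 1.17 (adjusted p = 0.0173, edgeR), which missed the threshold. The CD44LowKitNeg libraries held 4 to 66 counts, and the CD44High libraries held 21, 14 and 31. Both overlapped the CD44Neg counts, and the highest CD44LowKitNeg count equalled the lowest of CD44LowKitPos. The usual form Cox4i1 measured 608, 479 and 666 normalized CPM in CD44LowKitPos and 623.3 to 796 in CD44Neg (-0.21, adjusted p = 0.516).

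**Figure D3:**
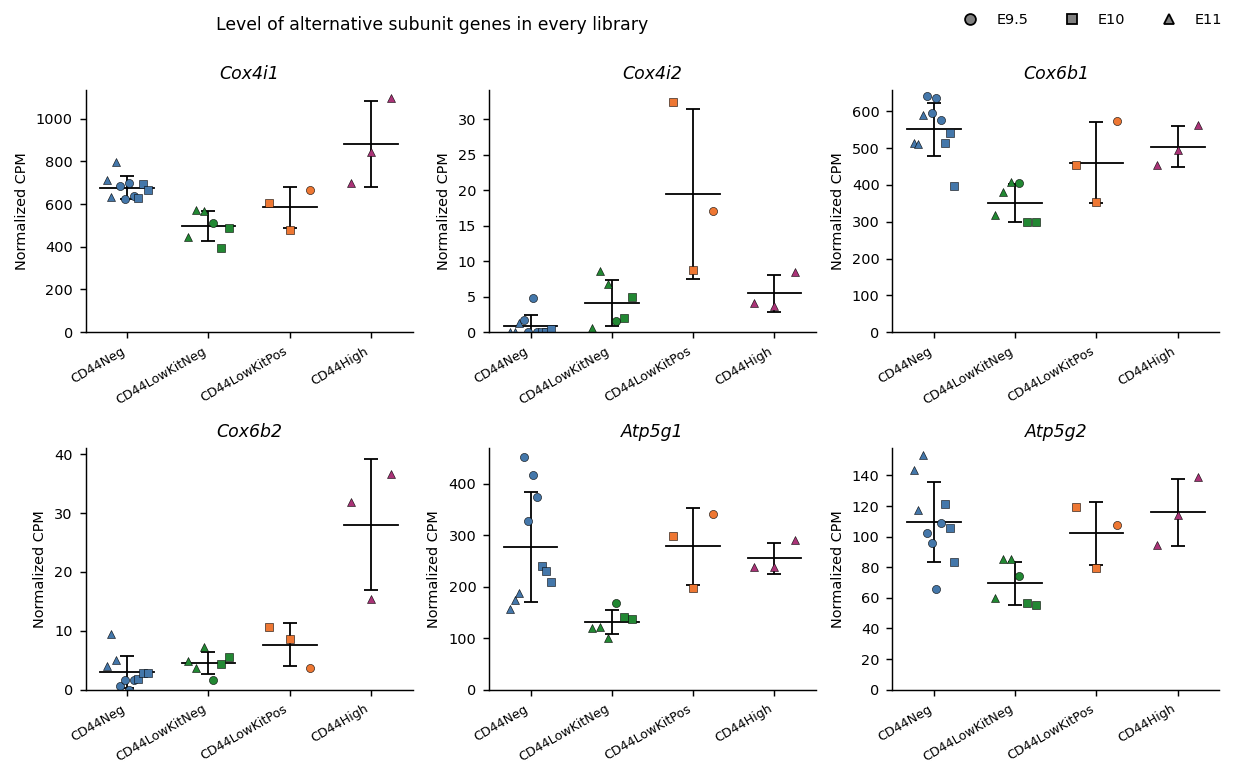
Normalized CPM (y axis, from 0, with its own scale in each panel) of alternative subunit genes in every library of the 4 populations (x axis), with means ± SD and stages marked by shape. Cox4i2 reached 32.41 in CD44LowKitPos and at most 8.538 elsewhere, Cox6b2 was at 15.44 to 36.73 in CD44High and at most 10.7 elsewhere, and Atp5g1 within CD44Neg was highest at E9.5.

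In CD44High the respiratory chain genes were higher than in CD44LowKitNeg. Of 79 tested members 28 were higher and 0 lower (35.4%, where 16% of all genes passed and 7.79% were higher), the median was 0.71 against 0 over all genes, and 77 of 79 were positive. For 39 members all CD44High libraries lay above all CD44LowKitNeg libraries (49.4%, against 13.6% of all genes). By complex 8 of 35 rose in I, 2 of 4 in II, 4 of 9 in III, 6 of 14 in IV and 8 of 17 in V. All 3 CD44High libraries were from E11, and against the 3 CD44LowKitNeg libraries of that stage alone 25 members were higher, where 16.2% of all genes passed in either direction. The macrophage markers were 7 of 7 present in CD44High, and the erythroid markers (6 of 10 present, with Hba-a1, Hba-a2, Hbb-bs and Hbb-bt at 0) summed to 58.85 to 283.5 there against 20.47 to 54.59 in CD44LowKitNeg. Whether cells of these kinds account for part of the difference was not tested.

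Atp5b had the smallest p in this comparison as well, at 1853, 1875 and 2213 in CD44High against 709.5 to 1030 (1.14 ± 0.17, adjusted p = 3.1e-05, edgeR). Ndufv3, an accessory subunit at the NADH-binding module of complex I, rose most among the called members. It measured 157, 256 and 263 in CD44High and 57.72 to 95.32 in CD44LowKitNeg (1.54 ± 0.24, adjusted p = 4.0e-05). Sdhd measured 956, 594 and 449 against 161.1 to 342.1 (1.46 ± 0.26, adjusted p = 1.9e-04), and here the 3 libraries differed by more than 2-fold among themselves. The other members with the smallest p were Atp5c1 (1.21), Cox8a (1.17), Ndufb3 (1.08), Atp5a1 (1.06), Ndufs7 (1.01), Cyc1 (1.01), Atp5l (0.90), Cox7a2 (0.88) and Cox4i1 (0.83). Cyc1 and Cox4i1 lost the call within E11. Without CD44High replicate 20 the calls of Sdhd, Atp5l and Cox7a2 were lost, without replicate 21 that of Cox7a2, and without replicate 22 those of Cyc1, Cox4i1, Ndufs7 and Cox7a2. Single libraries moved the count. It was 11 without CD44High replicate 21 or 22, 13 without CD44High replicate 20, and 16 to 18 without CD44Neg replicates 5 or 8 or CD44LowKitNeg replicates 11 or 15, each left out alone.

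Against CD44Neg the picture in CD44High was mixed. Of 79 members 12 were higher and 1 lower, which is 16.5% where 14.4% of all genes passed (7.14% higher and 7.25% lower), and the median was 0.23. Higher were Sdhd (1.28), Uqcrb (1.04), Cox7b (0.92), Atp5f1 (0.92), Ndufb3 (0.91), Ndufv3 (0.90), Atp5l (0.83), Atp5c1 (0.79), Ndufc2 (0.77), Atp5g3 (0.75), Atp5j (0.72) and Cox6b2. Within E11, the stage of all CD44High libraries, 5 of these 12 passed, Sdhd, Uqcrb, Cox7b, Atp5f1 and Atp5j. Of the others, Cox6b2 and Ndufv3 also lost the call with stage as a covariate, Ndufv3 at 0.77 (adjusted p = 0.0327, edgeR). Of 22 fits that left out 1 library, the call was lost in 11 for Atp5j and for Ndufc2, both also lost without the filter on low counts and without CD44LowKitNeg replicate 14 and CD44LowKitPos replicate 19 together, in 7 for Atp5f1, in 3 for Cox7b and in 1 or 2 for each of the other 8. Cyc1 and Atp5b, which led the comparison of the endothelial populations, stood at 0.01 and 0.15 and did not pass. Without CD44High replicate 20, 1 member passed, and without replicate 21, 4 passed. Replicate 20 held the highest value of the 3 for Sdhd (956), Uqcrb (1126), Cox7b, Atp5f1 and Atp5j.

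Ndufb3, a small accessory subunit of complex I, varied little within CD44High. It measured 214, 201 and 211 in CD44High and 74.94 to 139.1 in CD44Neg, without overlap (0.91 ± 0.18, adjusted p = 4.7e-04, edgeR). The Ndufb3 call was lost within E11 (0.69, adjusted p = 0.0581) and without CD44High replicate 20. Cox6b2, known as a testis form of subunit 6b, had 161, 58 and 135 counts in CD44High and 0 to 49 in CD44Neg (3.22 ± 0.74, adjusted p = 0.00232). The CD44Neg libraries at E11 held 15, 49 and 32 of these counts and the earlier ones 0 to 13. The Cox6b2 call was lost with stage as a covariate (2.47, adjusted p = 0.0198), within E11 (2.11, adjusted p = 0.161) and without CD44High replicate 20 or 22. The common form Cox6b1 did not pass between these populations (-0.13, adjusted p = 0.655). Ndufa8 was the 1 member that was lower. It measured 122, 120 and 181 in CD44High and 184.3 to 482.1 in CD44Neg, without overlap (-1.11 ± 0.29, adjusted p = 0.00562). Its call was lost with stage as a covariate, within E11 and without CD44High replicate 20 or 21. At E11 alone, 8 members were higher and 0 lower (10.1%), where 9.42% of all genes passed, and 3 of the 8 were not among the 12 named above.

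**Figure D4:**
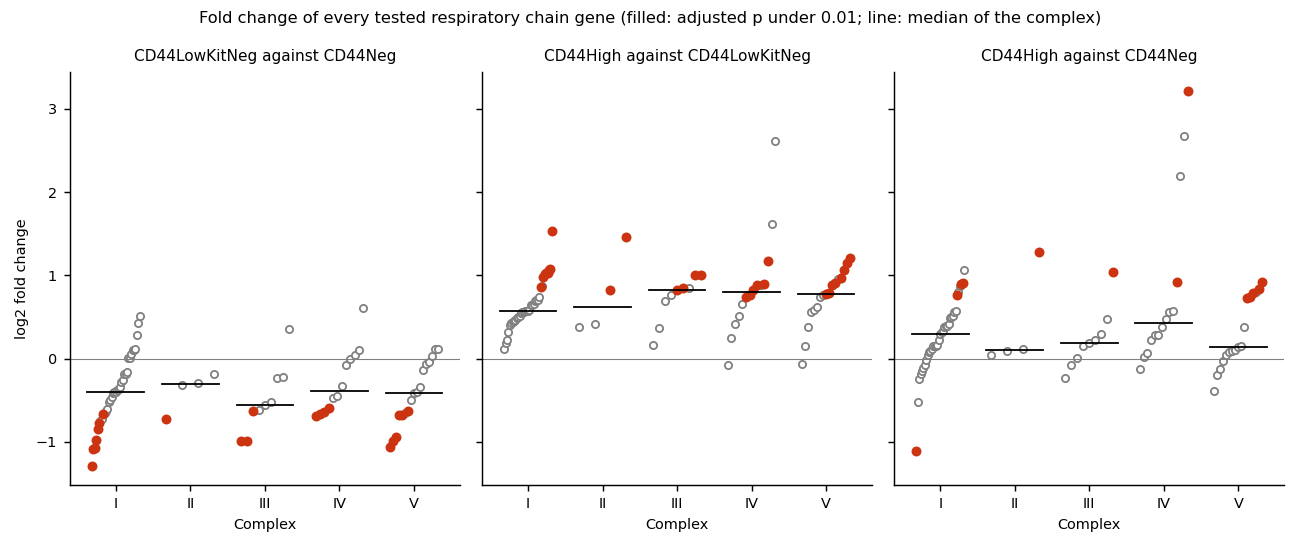
The log2 fold change (y axis) of every tested respiratory chain gene by complex (x axis) in 3 comparisons of populations, ordered by value within each complex. Filled points passed an adjusted p under 0.01 and lines are the medians of a complex. All 21 filled points lie below 0 for CD44LowKitNeg against CD44Neg, all 28 lie above 0 for CD44High against CD44LowKitNeg, and 12 lie above and 1 below for CD44High against CD44Neg.

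Between CD44High and CD44LowKitPos 0 of 79 members passed by edgeR (3.01% of all genes passed), with 15 at an unadjusted p under 0.05 (17.8% of all genes) and 6 called by DESeq2. The median was 0.28. The smallest adjusted p was that of Ndufa1, a small membrane-arm subunit of complex I, at 236, 172 and 142 against 75.4, 78.4 and 108 (1.07 ± 0.27, adjusted p = 0.0161). Stage and population cannot be told apart here, and Rn45s was at 16.6% to 23.9% in CD44High against 6.82% to 9.26%. Without Rn45s 0 members passed as well, and its part was not tested further.

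The c-ring subunit of the ATP synthase is encoded by 3 genes whose mature proteins are the same. Atp5g1 was lower in CD44LowKitNeg than in CD44Neg (99.91 to 169 against 157.4 to 452.2, adjusted p = 0.0032, edgeR). Atp5g2 (-0.65, adjusted p = 0.0202) and Atp5g3 (-0.14, adjusted p = 0.514) did not pass. In CD44High only Atp5g3 of the 3 passed against CD44LowKitNeg (0.89), at 586, 509 and 306 against 201.8 to 300.9, with Atp5g1 at 0.95 (adjusted p = 0.0178) and Atp5g2 at 0.74 (adjusted p = 0.028). This Atp5g3 call was not followed by gene through the other settings. The differences among the 3 genes were not tested.

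Between stages, edgeR called 1 member, Atp5g1. Within CD44Neg it measured 452, 327, 417 and 374 at E9.5, 241, 231 and 210 at E10 and 157, 174 and 187 at E11. The 3 stages did not overlap, and the log2 fold change of E11 against E9.5 was -1.16 ± 0.16 (adjusted p = 0.00294, edgeR). It was the only call among 77 members (1.3%, where 0.684% of 11250 genes passed), with 27 at an unadjusted p under 0.05 (17.1% of all genes) and 3 called by DESeq2. The call was lost without CD44Neg replicate 1, 2, 3 or 4, each left out alone. Ndufa8 (-0.87, adjusted p = 0.0199) and Ndufa12 (-0.86, adjusted p = 0.0319), accessory subunits of complex I, came next.

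In the same comparison, without a test of the complexes, 30 of 35 complex I genes were negative (median -0.27). The medians were -0.25 for complex II, -0.25 for III, -0.05 for IV and 0.01 for V, against 0.03 over all genes. The 5 genes of the F1 part of complex V were all positive (median 0.23), Atp5d at 0.46 and Atp5b at 0.41. The sum of complex I was 7272 to 9321 at E9.5, 6103 to 6864 at E10 and 6021 to 6688 at E11, so E9.5 lay apart from both later stages, whereas complex V had 6880 to 7557, 6519 to 7398 and 6951 to 7627. E10 against E9.5 gave 0 calls of 77 by edgeR (0.0178% of all genes passed), with 16 at an unadjusted p under 0.05 (15.2% of all genes) and 1 called by DESeq2. E11 against E10 gave 0 calls by edgeR, where 0% of all genes passed, with 4 at an unadjusted p under 0.05 (8.68% of all genes) and 0 called by DESeq2.

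In CD44LowKitNeg the 3 libraries at E11 were compared with the 3 from E9.5 and E10. Of 78 members 0 passed by edgeR (0.173% of all genes passed), 15 had an unadjusted p under 0.05 (16.8% of all genes) and DESeq2 called 8. Ndufb6, a membrane-arm subunit of complex I, had the smallest p. It measured 180, 220 and 217 at E11, 550 at E9.5 and 510 and 647 at E10, a gap of more than 2-fold (-1.43 ± 0.20, adjusted p = 0.0136). Uqcrb, Cox7b, Atp5f1 and Sdhd followed, at -0.81 to -0.98. Rn45s was at 17.4% to 19.2% in the E11 libraries and at 7.29% to 11.1% in the earlier ones, and without it 0 members passed as well. In the test of whether the population difference changed between E10 and E11, 0 of 79 members passed by edgeR (0.00806% of all genes), 12 had an unadjusted p under 0.05 (10.7% of all genes) and DESeq2 called 0. In simulated counts this test called 0 of 89 genes changed by 1 on the log2 scale and 0 of 111 changed by 2. Its 0 calls therefore cannot decide whether the difference changed. For E11 against earlier CD44LowKitNeg libraries the simulated counts gave 0 of 85 and 17 of 115.

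The transcripts of the members were short by their median and varied in GC content. Their median transcript length was 655 bases, against 1949 for 21877 coding genes (GENCODE M21). The GC content of their longest coding transcripts ran from 36.7% to 63.3%. Its median was 51.4%, against 49.1% over all coding genes. Fold change moved with GC content. Of the 38 tested members at or over the median GC 16 were lower in CD44LowKitNeg than in CD44Neg (median -0.63), and of the 39 under it 5 were (median -0.22). All tested genes with a coding transcript showed the same slant, with medians of -0.19 over and 0.13 under the same GC content. Spearman's rho between fold change and GC content was -0.43 over 77 members and -0.23 over 10421 genes. Genes of 1 set of libraries are not independent, so these are descriptions, and they were chosen after the values were seen. In the comparison of E11 with earlier CD44LowKitNeg libraries rho was 0.54 over 78 members and 0.33 over 10385 genes. In CD44High against CD44LowKitNeg it was 0.13 and -0.02. The part of GC content in the calls was not tested. Of the 25 tested members that share over 10% of their words 4 were called (median -0.34), and of the other 52 members 17 were (median -0.41). The part of shared sequence was not tested.

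**Figure D5:**
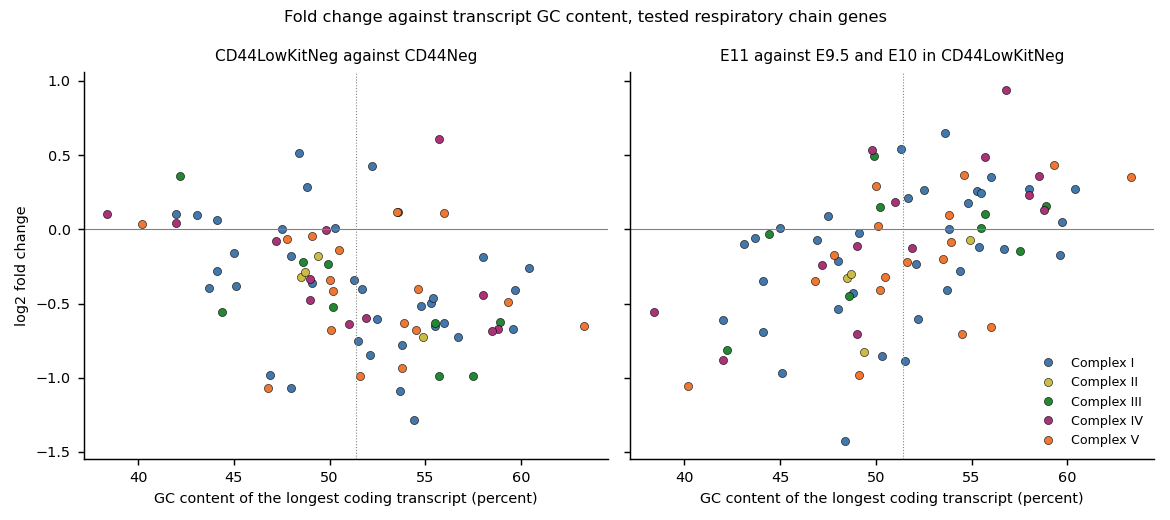
The log2 fold change (y axis) of tested respiratory chain genes against the GC content of their longest coding transcript in percent (x axis), coloured by complex, for 2 comparisons. The dotted line marks the median GC of 51.4%. Fold changes slope down with GC content for CD44LowKitNeg against CD44Neg (rho -0.43 over 77 genes) and up for E11 against E9.5 and E10 in CD44LowKitNeg (rho 0.54 over 78 genes).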

How the data were processed

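RNA from 25 sorted cells per library was amplified by Smart-seq2 and sequenced on an Illumina NextSeq. The authors clipped the reads with FASTX, mapped them with RNA STAR and counted them with htseq-count, and the submitters' processing notes name the mm10 build. Strand setting, annotation and treatment of multiply mapped reads were not given in the sources used here. The deposited values were raw counts per gene. The members and lists were chosen with earlier results of these data known. Genes were filtered with filterByExpr (minimum count 10, minimum total 15), scaled by TMM and tested with edgeR 4.0.16's quasi-likelihood test (R 4.3.3), with Benjamini-Hochberg adjustment over all tested genes and calls at an adjusted p under 0.01. CD44LowKitNeg was compared with CD44Neg in their 16 libraries, and the other populations in 1 fit of 22. Stages were fitted within a population. Standard errors are the log2 fold change over the root of F. DESeq2 1.42.0, other filters and scalings, stage terms and left-out libraries were alternatives. Member counts from DESeq2, other filters and scalings and left-out libraries are given without shares of all genes. Those counts show only how the calls moved. Named were called members (the 12 with the smallest adjusted p where more passed in 1 direction), the extremes of each complex in CD44LowKitNeg against CD44Neg, isoforms, and catalytic or redox core subunits. Others named were chosen after their values were seen. The scripts were tested on simulated data. Some items are not reported here.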

Additional observations from a re-analysis of the deposited data

Results flagged for a closer look

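In 7 of 96 sets of values, 1 library lay far from the others of its group, by Dixon's test at 95%, where chance flags about 1 in 20. Cox6b1 was at 397 normalized CPM in CD44Neg replicate 10 (others 512 to 641), and Cox4i1 at 796 in CD44Neg replicate 3 (others 623 to 715). Cox8a was at 214 in CD44LowKitNeg replicate 12 (others 138 to 165), where Atp5sl was at 12.2 (others 30.8 to 41.7). Cox6b2 was at 9.53 in CD44Neg replicate 2 (others 0 to 4.96), and Ndufv2 at 458 in CD44Neg replicate 6 (others 273 to 367). The sum of complex IV was 2460 in CD44LowKitNeg replicate 11 (others 3250 to 3640).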

How the results depend on the processing

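No paired analysis was possible because the replicate numbers in the labels run through the whole series, so that no 2 groups share one. Counts of called members moved by more than 1.5 times as follows, and the cause was not tested except where fewer samples or another threshold made the setting. For CD44LowKitNeg against CD44Neg the 21 calls became 13 without the filter on low counts. They became 37 at an adjusted p under 0.05 (20.1% of all genes), 4 within E11 (2.89%) and 0 within E10 (0.205%). With single libraries left out they ran from 13 to 22. For CD44LowKitPos against CD44LowKitNeg the 4 calls became 1 with DESeq2 size factors and 1 without the filter. They became 0 with at least 10 counts in every library, 2 without Rn45s, 12 at 0.05 (12.5% of all genes) and 0 within E10. Without CD44LowKitNeg replicate 14 and CD44LowKitPos replicate 19 together 2 passed, and 0 to 6 passed with single libraries left out. DESeq2 size factors moved the median of all genes in that comparison from -0.02 to -0.16 and that of the members from 0.42 to 0.29. For CD44LowKitPos against CD44Neg 0 became 2 by DESeq2, 2 at 0.05 (7.27% of all genes) and 0 to 1 with libraries left out. For CD44High against CD44LowKitPos 0 became 6 by DESeq2 and 3 at 0.05 (6.05% of all genes). For CD44High against CD44LowKitNeg 28 became 48 at 0.05 (26.8% of all genes) and 11 to 32 with libraries left out. For CD44High against CD44Neg 13 became 8 within E11 (9.42% of all genes) and 1 to 15 with libraries left out. Between stages of CD44Neg, E10 against E9.5 went from 0 to 1 by DESeq2 and 1 at 0.05 (0.933% of all genes). E11 against E9.5 went from 1 to 3 without the filter, 3 by DESeq2 and 3 at 0.05 (3.13%). With libraries left out it gave 0 to 1. In CD44LowKitNeg, E11 against earlier went from 0 to 1 without the filter and 1 with at least 10 counts. It gave 8 by DESeq2 and 1 at 0.05 (2.13% of all genes). The test of the change between E10 and E11 stayed at 0 calls by edgeR and by DESeq2 in each setting run, with 12 members at an unadjusted p under 0.05. In simulated counts with known changes this test also gave 0 calls by edgeR, so its 0 calls cannot decide the question.

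Only named members were followed by gene through the settings. Of these, members not called in CD44LowKitNeg against CD44Neg changed sign in 24 cases. Cox7a2l became 0.0565 with DESeq2 size factors, 0.0566 in the DESeq2 test, 0.0305 without the filter, 0.0512 with at least 10 counts and 0.0483 without Rn45s, and ran from -0.1294 to 0.1083 with libraries left out. Cox7b ran from -0.074 to 0.1594 with libraries left out and was -0.26 within E11, where Cox6b2 was -0.19 and Ndufv2 -0.13. Within E10, Atp5sl was -0.17, Sdhd 0.43, Atp5g3 0.25, Sdhc 0.23 and Uqcrfs1 0.0825.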
